A study of Homo sapiens with 6 samples.

Results

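The genes described here are 6 transcription factors that drive the epithelial to mesenchymal transition (EMT), ZEB1, ZEB2, SNAI1, SNAI2, TWIST1 and TWIST2, with the cadherins CDH1 and CDH2, the intermediate filament gene VIM and the matrix gene FN1. They were chosen by name, as the classical regulators and readouts of EMT. Of these 10 genes, 9 have a row among the 30015 genes of the deposited table, 8 averaged 10 or more normalized counts and were tested, and ZEB1 was not analysed here.

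The libraries were made from polyadenylated RNA of HMV-II, a human melanoma cell line of vaginal mucosa cultured in F10 medium with fetal bovine serum. The 3 Vector libraries come from cells labelled wild type, and the 3 shEZH2 libraries from cells in which EZH2 was knocked down. According to the study's methods, cells were infected with lentiviral particles coding for an EZH2 hairpin or a scrambled control hairpin and were made stable with puromycin, so both groups carry a hairpin and the selection. The table heads the knockdown group as a single hairpin, so a second hairpin does not stand behind these values. Nothing in the labels says whether replicates were separate cultures, and p-values measure only the spread between these libraries, which may be technical.

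EMT is the program by which epithelial cells give up their junctions and become motile. Factors of the SNAI and ZEB families bind E-box sequences in genes such as CDH1 and repress them, TWIST factors act with them, and CDH1 (E-cadherin) is replaced by CDH2 (N-cadherin) while VIM (vimentin) and FN1 (fibronectin) rise. Melanocytes descend from the neural crest, whose cells use SNAI2 and ZEB2 in normal development, and melanomas are known for an exchange in which ZEB2 and SNAI2 give way to ZEB1 and TWIST1. EZH2 is the methyltransferase of Polycomb repressive complex 2, which places the repressive mark H3K27me3.

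EZH2 itself measured 483, 437 and 552 normalized counts in Vector replicates 1 to 3 and 237, 247 and 225 in shEZH2 replicates 1 to 3. The groups do not overlap, and the log2 fold change was -1.04 (SE 0.14, limma adjusted p = 0.0142, n = 3 per group). Depth was 13400290 to 15923029 reads in Vector libraries and 16129171 to 19128939 in shEZH2 libraries. Vector replicate 2 stood apart from its group. Its mean chi-square per gene was 119 against replicate 1 and 117 against replicate 3, compared with 2.14 between replicates 1 and 3 and with 6.49 to 23.9 between shEZH2 libraries. Relative to the mean of the other libraries, its median log2 deviation was -0.59 over the shortest genes and 0.44 over the longest. Each is 1 of 5 bins of equal size by exon length. Among shEZH2 libraries, replicate 1 had the largest length trend, in the other direction, at 0.29 over the shortest genes and -0.23 over the longest. Its mean chi-square was 23.9 against shEZH2 replicate 2 and 14.3 against replicate 3, compared with 6.49 between those 2. Results that move with Vector replicate 2 are therefore also given without that library. The melanocyte markers PMEL, SOX10, DCT, MLANA, MITF and TYR were present in every library, between 197 and 67512 normalized counts. The 5 fibroblast markers that averaged under 10 normalized counts, COL1A1, COL3A1, DCN, PDGFRA and PDGFRB, reached at most 4.79. The other 3 on that list, COL1A2, LUM and FAP, were tested. The list summed to 440 to 453 in Vector and 727 to 912 in shEZH2 libraries. The epithelial markers under that mean, EPCAM, GRHL2, KRT14 and TP63, reached at most 10.5. Another 2 epithelial markers were tested, and their list summed to 887 to 1329 in Vector and 1234 to 1348 in shEZH2 libraries.

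Among the 8 genes tested, FN1 rose and the other 7 did not pass the threshold, which asks for a change of more than 1.5-fold and a p below 0.05 before adjustment. FN1 was 1.82-fold higher in shEZH2 libraries (95% confidence interval 1.23 to 2.72). No EMT transcription factor passed. CDH1 was lower and TWIST2 higher in every shEZH2 library than in any Vector library, at sizes under the threshold. Of all 15251 genes tested, 14.6% passed the threshold in either direction, 7.55% of them upward and 7.07% downward as shares of the genes tested, so 1 of 8 lies near the background. With Vector replicate 2 left out, the share was 12.7%, and FN1 was again the single gene of the 8 that passed. None of the 8 had a limma adjusted p under 0.05 with all 6 libraries, against 4.12% of all genes, 1 of them (FN1) had an unadjusted p under 0.05, and DESeq2 and edgeR gave 1 and 0 adjusted calls among them. The groups did not overlap for 3 of the 8, against 34.8% of all genes. The median log2 fold change of the 8 was 0.15, beside 0.04 over all genes, and 0.02 without Vector replicate 2. In bulk RNA, fewer cells of a type and less RNA per cell cannot be told apart.

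**Figure D1:**
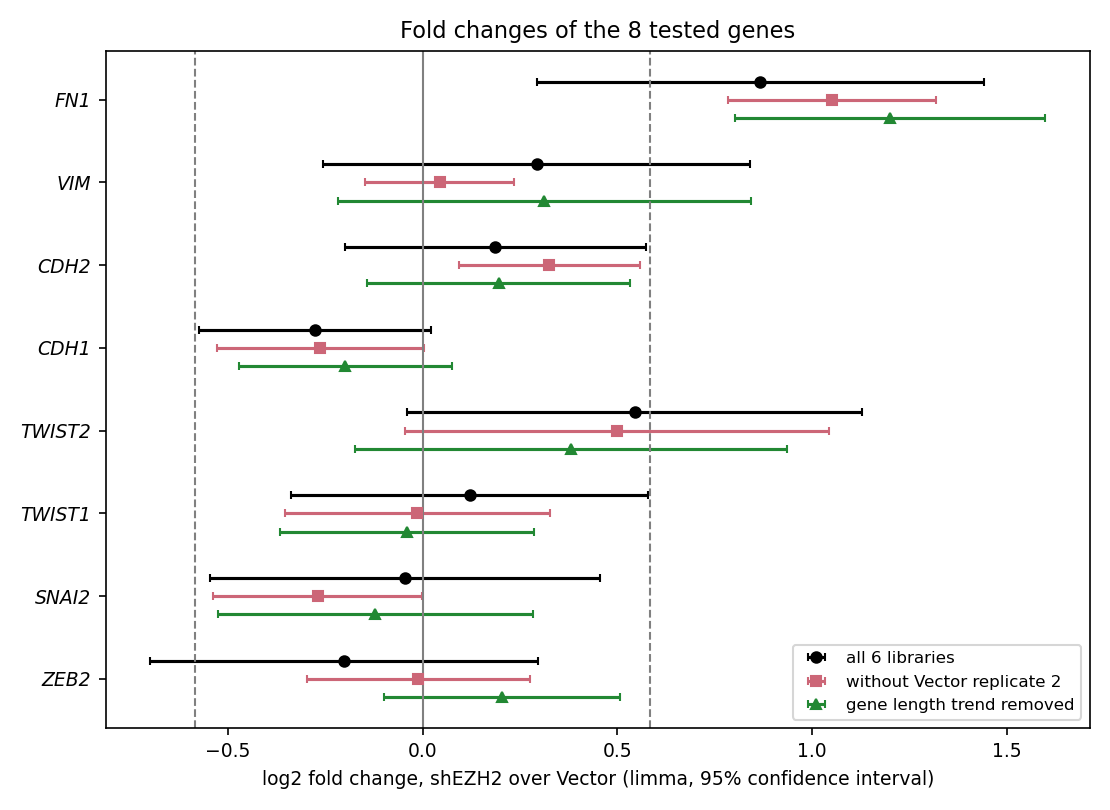
Log2 fold change of shEZH2 over Vector (x axis, limma, with 95% confidence intervals) for the 8 tested genes (y axis), with all 6 libraries, without Vector replicate 2 and with the gene length trend removed. The dashed lines mark a 1.5-fold change. FN1 alone lies past them in all 3 fits, at 0.87, 1.05 and 1.20, while the points of ZEB2 fall on both sides of 0.

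ZEB2, a zinc finger E-box repressor (ENSG00000169554; GRCh38 chromosome 2, 144364364 to 144524583, minus strand), measured 2513, 3756 and 2545 normalized counts in Vector and 2047, 2941 and 2626 in shEZH2 libraries. The groups overlap, and Vector replicate 2 holds the highest value of all. The log2 fold change was -0.20 (SE 0.21, 95% interval -0.70 to 0.30, limma adjusted p = 0.583). It was -0.01 without Vector replicate 2 and 0.20 once the gene length trend had been removed, so these libraries give no direction for ZEB2. Its exons span 25058 bases, more than those of any other gene named in the choice.

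SNAI2, known as Slug, a repressor of the SNAI family needed in the melanocyte lineage (ENSG00000019549; chromosome 8, 48917604 to 48921740, minus strand), measured 793, 476 and 730 in Vector and 552, 670 and 679 in shEZH2 libraries. Both extremes belong to the Vector group, and all shEZH2 values lie between them. The log2 fold change was -0.04 (SE 0.21, 95% interval -0.54 to 0.46, limma adjusted p = 0.913). Without Vector replicate 2, whose value was the lowest, it was -0.27 (limma adjusted p = 0.152), and it turned positive without Vector replicate 1, without Vector replicate 3 or without shEZH2 replicate 1.

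SNAI1, known as Snail (ENSG00000124216; chromosome 20, 49982999 to 49988886, plus strand), had 0, 1 and 2 reads in Vector libraries and 0, 4 and 1 in shEZH2 libraries. All but one of these lie at or under 3 reads, the limit that a count of 0 allows, and intervals of this kind cover counting error only. SNAI1 was not tested, and a difference between the groups was not detectable at this depth.

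TWIST1, a basic helix-loop-helix factor (ENSG00000122691; chromosome 7, 19020991 to 19117672, minus strand), measured 359, 250 and 306 in Vector and 402, 288 and 306 in shEZH2 libraries. The groups overlap, and the log2 fold change was 0.12 (SE 0.20, 95% interval -0.34 to 0.58, limma adjusted p = 0.726). It was -0.01 without Vector replicate 2 and -0.04 with the length trend removed.

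TWIST2, the paralog of TWIST1 (ENSG00000233608; chromosome 2, 238848032 to 238910543, plus strand), was the lowest of the tested genes, with 47.1, 40.7 and 42.8 normalized counts in Vector and 87.6, 57.5 and 51.6 in shEZH2 libraries. These rest on 35 to 45 reads in Vector and 54 to 92 in shEZH2 libraries. Every shEZH2 library was above every Vector library, and shEZH2 replicate 1 lay well above the other shEZH2 libraries. The means were 43.5 ± 3.22 and 65.6 ± 19.3 (SD, n = 3), with a log2 fold change of 0.54 (SE 0.25, 95% interval -0.04 to 1.13, limma adjusted p = 0.242). An exact two-sided permutation test gave p = 0.1, the smallest that 3 against 3 libraries allow. Without shEZH2 replicate 1 the log2 fold change was 0.32, and without shEZH2 replicate 3 it was 0.70 and passed the threshold. It was 0.38 with the length trend removed and 0.26 with array weights, the lowest of the alternatives, and passed in neither.

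**Figure D2:**
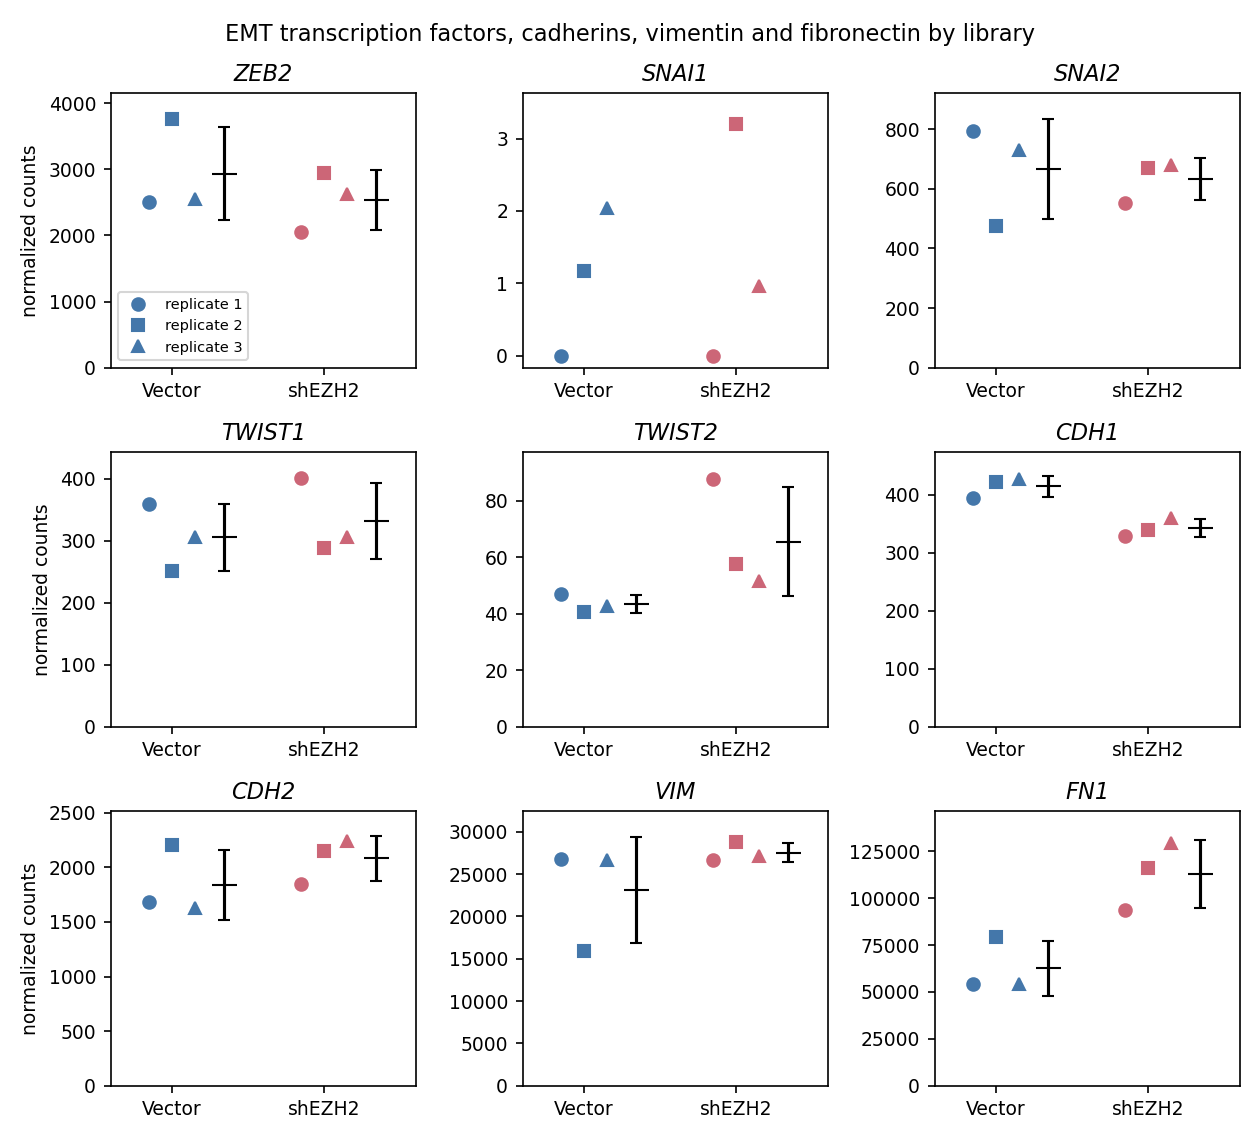
Normalized counts (y axis, linear from 0, with its own scale in each panel) of the 9 genes with a row, for 3 Vector libraries (blue) and 3 shEZH2 libraries (red), the marker shape giving the replicate number. Bars are the mean and SD, left out for SNAI1, which had at most 4 reads. FN1, CDH1 and TWIST2 show no overlap between groups. Vector replicate 2 (square) is far from the other Vector libraries for VIM, ZEB2, SNAI2, FN1 and CDH2.

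CDH1, E-cadherin, the adhesion molecule of epithelial junctions (ENSG00000039068; chromosome 16, 68737225 to 68835548, plus strand), measured 394, 421 and 428 normalized counts in Vector and 328, 339 and 360 in shEZH2 libraries. Every shEZH2 library was lower than every Vector library. The means were 414 ± 17.8 and 342 ± 16.1 (SD, n = 3). The log2 fold change was -0.28 (SE 0.13, 95% interval -0.57 to 0.02, limma adjusted p = 0.245), and the exact permutation p was 0.1. It stayed negative in every alternative run, between -0.31 and -0.20. The pseudogene FTLP14 overlaps CDH1 on the same strand, with a mean equal to 3.06% of that of CDH1. No other gene overlapping one of the 9 reached a larger share of its mean.

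CDH2, N-cadherin, the cadherin of neural and mesenchymal cells (ENSG00000170558; chromosome 18, 27950966 to 28177446, minus strand), measured 1683, 2210 and 1630 in Vector and 1850, 2154 and 2242 in shEZH2 libraries. The groups overlap through Vector replicate 2 alone, which exceeds the lower shEZH2 values. The log2 fold change was 0.19 (SE 0.17, 95% interval -0.20 to 0.57, limma adjusted p = 0.512), and 0.33 without Vector replicate 2 (limma adjusted p = 0.0518).

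Per kilobase of exon, CDH2 exceeded CDH1 in every library. The ratio of the per-kilobase levels, with 1 added to each normalized count, was 5.32, 6.53 and 4.75 in Vector and 7.01, 7.92 and 7.75 in shEZH2 libraries. Each shEZH2 library was above all Vector libraries, with means of 5.53 ± 0.910 and 7.56 ± 0.485 (SD, n = 3). On the log2 scale, the ratio of normalized counts differed by 0.46, and an exact two-sided permutation test gave p = 0.1, again the smallest possible. With the length trend removed the difference was 0.39 and the exact permutation p was 0.2, so the groups were then not completely separated. Within a library, this ratio does not depend on the size factor, apart from the small effect of the added 1.

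**Figure D3:**
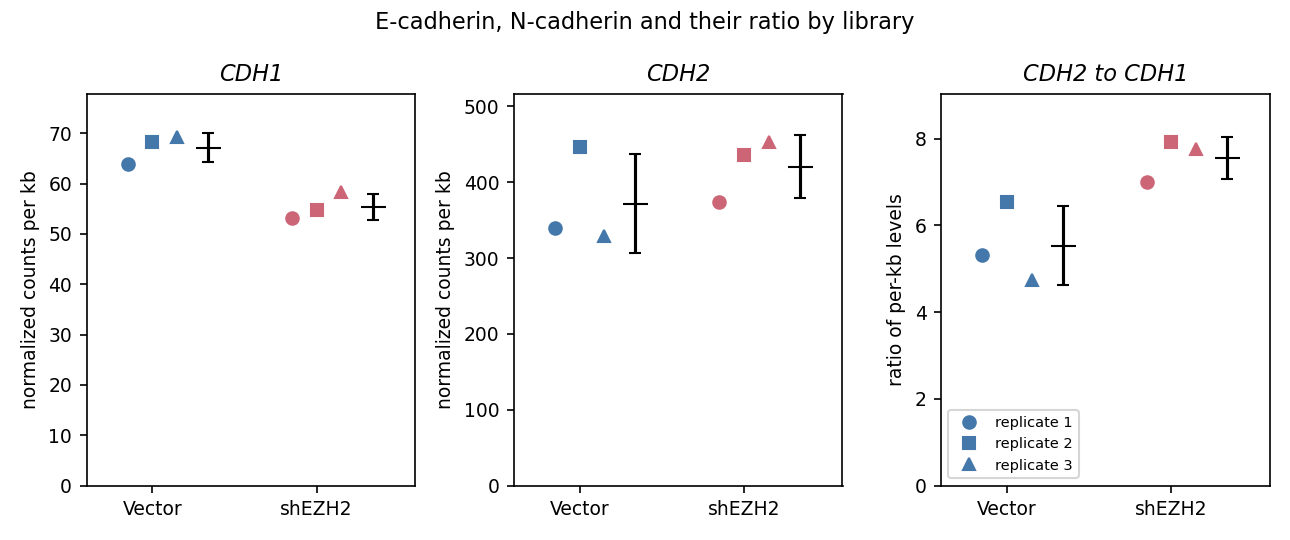
Normalized counts per kilobase of CDH1 and CDH2 and the ratio of CDH2 to CDH1 (y axes, linear from 0) in 3 Vector and 3 shEZH2 libraries, with mean and SD. The ratio, with 1 added to each normalized count, lies between 4.75 and 6.53 in Vector libraries and between 7.01 and 7.92 in shEZH2 libraries.

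VIM, the main intermediate filament protein of mesenchymal and melanocytic cells (ENSG00000026025; chromosome 10, 17228259 to 17237593, plus strand), measured 26725, 15896 and 26647 in Vector and 26610, 28813 and 27141 in shEZH2 libraries. All libraries but Vector replicate 2 lie close together. The log2 fold change was 0.29 (SE 0.24, 95% interval -0.26 to 0.84, limma adjusted p = 0.472) and 0.04 without that library.

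FN1, fibronectin, a secreted matrix glycoprotein that integrins bind (ENSG00000115414; chromosome 2, 215360440 to 215436172, minus strand), measured 54026, 79312 and 54122 in Vector and 93523, 116344 and 129364 in shEZH2 libraries. The lowest shEZH2 value exceeds the highest Vector value, which is that of replicate 2. The means were 62487 ± 14571 and 113077 ± 18143 (SD, n = 3). FN1 took 0.330%, 0.508% and 0.334% of the reads of the Vector libraries and 0.609%, 0.762% and 0.822% of those of the shEZH2 libraries. By reads it ranked 13, 7 and 13 among all genes in Vector and 5, 4 and 4 in shEZH2 libraries.

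The log2 fold change of FN1 was 0.87 (SE 0.25, 95% interval 0.29 to 1.44), with a limma adjusted p of 0.0949 and an exact permutation p of 0.1. Without Vector replicate 2 it was 1.05 (limma adjusted p = 0.000103), and with the length trend removed 1.20 (limma adjusted p = 0.00838). On the recovered reads, DESeq2 gave 0.83 with an adjusted p of 0.0123 and edgeR 0.85 with an adjusted p of 0.0895. Over all alternatives the log2 fold change of FN1 ran from 0.76 to 1.22 and its adjusted p reached 0.328. FN1 has 17315 exonic bases, more than 98.2% of the genes tested.

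The promoter windows of FN1 and VIM, 1 for each gene, are shown because FN1 and VIM are the most abundant of the genes. FN1 had passed the threshold and VIM had not. RefSeq windows from 250 bases before to 50 after the annotated start, on the gene's strand in GRCh38.p14, were matched by symbol for 6 of the 10 genes. CDH1, SNAI1, SNAI2 and TWIST1 had no window and were not searched. The FN1 window is chr2:215436019-215436318 on the minus strand and the VIM window chr10:17227991-17228290 on the plus strand. Capitals mark a full cyclic AMP response element (CRE) TGACGTCA at -183 to -176 and a CCAAT box at -162 to -158 from the start of FN1.
FN1: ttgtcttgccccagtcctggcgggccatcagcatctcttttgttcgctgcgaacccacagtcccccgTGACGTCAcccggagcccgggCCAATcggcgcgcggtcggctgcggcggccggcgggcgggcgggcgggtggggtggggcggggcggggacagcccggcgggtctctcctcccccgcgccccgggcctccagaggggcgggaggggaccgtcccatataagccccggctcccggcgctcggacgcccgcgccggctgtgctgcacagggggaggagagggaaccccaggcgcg
VIM: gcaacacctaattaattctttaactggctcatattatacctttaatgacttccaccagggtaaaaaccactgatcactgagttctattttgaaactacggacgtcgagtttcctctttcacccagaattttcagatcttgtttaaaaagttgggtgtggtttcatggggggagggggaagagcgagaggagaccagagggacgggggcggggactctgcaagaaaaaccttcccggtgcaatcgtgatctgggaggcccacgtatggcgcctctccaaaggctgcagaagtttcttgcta

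The FN1 window is rich in CpG, with 38 CpG, a GC content of 76.67% and an observed to expected CpG ratio of 0.864. The VIM window has 10 CpG, a GC content of 48.0% and a ratio of 0.584, near the median of 0.579 over the 35116 promoters. These values describe that window only, and sequence outside it was not examined. The motifs searched, on both strands, were CAGGTG, the E-box that ZEB and SNAI factors bind, TGACGTCA, the TEAD motif GGAATG, and CCAAT. They occur in 20.6%, 1.85%, 14.03% and 34.6% of all promoters of this length. CAGGTG was not in the windows of FN1, VIM, ZEB2, TWIST2 or CDH2, and VIM held none of the 4 motifs. ZEB1, with 7 windows, held CAGGTG 1 time in the first of them and 3 times in the third, and GGAATG 1 time in the first. A CCAAT also lies in the windows of TWIST2 and CDH2. These matches describe letters in the windows, and binding was not measured here.

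Compared per kilobase of exon, the genes ranked in Vector libraries as VIM (4476 normalized counts per kilobase), FN1 (3609), CDH2 (372), SNAI2 (196), TWIST1 (150.1), ZEB2 (117), CDH1 (67.1), TWIST2 (23.2) and SNAI1 (0.633). VIM and FN1 exceeded 99.5% and 99.3% of the genes tested, CDH2 88.5%, CDH1 49.2% and TWIST2 26.5%. The neighbours VIM and FN1, SNAI2 and TWIST1, and TWIST1 and ZEB2 overlapped between libraries, and the other neighbours did not. In shEZH2 libraries, FN1 came first with 6531 and VIM second with 5336, at overlapping values, and the order of the rest was the same. Among the EMT factors measured, SNAI2, TWIST1 and ZEB2 were thus present in every library at 81.7 to 234 normalized counts per kilobase, and SNAI1 was near 0. The exon length is a single annotated value per gene, and the lengths of the transcripts made in these cells were not measured. The order between genes, such as the long ZEB2 and FN1 against the others, therefore depends on that annotation.

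**Figure D4:**
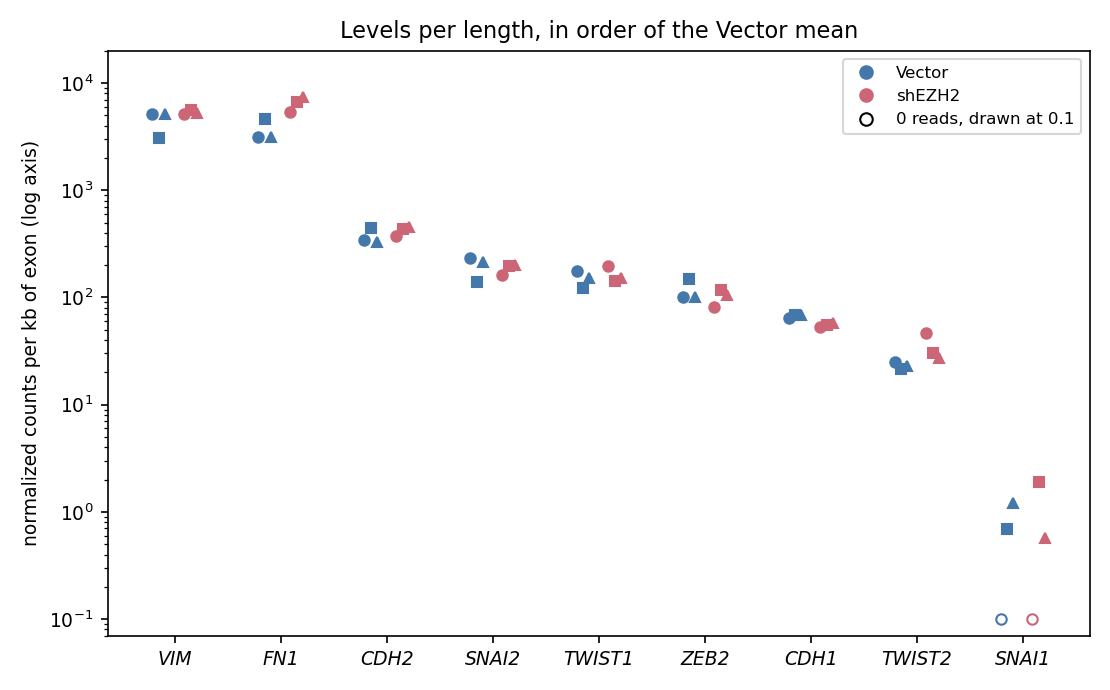
Normalized counts per kilobase of exon (y axis, log scale) of the 9 genes in order of their Vector mean, 1 point per library (blue Vector, red shEZH2, marker shape for the replicate). Open circles are libraries with 0 reads, drawn at 0.1. VIM and FN1 lie far above the rest in all libraries, and SNAI1 far below.

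Catenins and related proteins join cadherins to the actin cytoskeleton. Of 13 catenins and cadherin partners named, 12 were tested, 2 rose, 2 fell and 3 had an adjusted p under 0.05. Their median log2 fold change was -0.27, and -0.07 without Vector replicate 2. Over all genes tested, 14.6% passed the threshold and 4.12% had an adjusted p under 0.05, and the counts of every list that follows stand beside these shares. JUP (plakoglobin), a catenin of desmosomes and adherens junctions, measured 99.3, 106 and 91.6 normalized counts in Vector and 299, 241 and 257 in shEZH2 libraries. It was higher in all shEZH2 libraries, by a log2 fold change of 1.41 (SE 0.16, limma adjusted p = 0.00805). CTNNA1 (alpha-catenin), which couples the complex to actin, measured 25455, 23252 and 24919 in Vector and 13483, 14104 and 14979 in shEZH2 libraries. It was lower in all of them, with a log2 fold change of -0.79 (SE 0.15, limma adjusted p = 0.0325). The other 2 that passed, CTNND2 (1.76) and CTNNA2 (-0.69), had means under 50. CTNNA2 did not pass the threshold with array weights (-0.56), with the length trend removed (-0.55) or without shEZH2 replicate 1 (-0.59). CTNNB1 (beta-catenin) and CTNND1 (p120), chosen here after their values were seen, had log2 fold changes of -0.24 and -0.02 and overlapping groups.

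Of 19 other cadherins named, 16 have a row, 6 were tested, 2 rose and 1 fell. CDH19, a cadherin of Schwann cell precursors and neural crest derivatives, measured 2044, 2260 and 2047 in Vector and 1025, 1356 and 1116 in shEZH2 libraries. All shEZH2 libraries were lower, with a log2 fold change of -0.87 (SE 0.15, limma adjusted p = 0.0261). CDH24 rose by 0.67 on the log2 scale (limma adjusted p = 0.0534), from 143 to 171 in Vector to 233 to 267 in shEZH2 libraries. CDH7 (1.35), at low counts, was the other that rose, and it did not pass without shEZH2 replicate 2 (1.17). The list held 10 genes under the minimum mean, among them CDH3 (P-cadherin), CDH6, CDH11 and CDH13.

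Of 19 further EMT transcription factors, 14 were tested, with 3 higher, 2 lower and 1 adjusted p under 0.05. PRRX1, a homeobox factor of mesenchyme, fell from 589 to 724 in Vector to 297 to 361 in shEZH2 libraries, a log2 fold change of -0.96 (SE 0.15, limma adjusted p = 0.0200). HMGA2, a chromatin protein that binds AT-rich DNA, changed by -0.64 (limma adjusted p = 0.0761), and did not pass the threshold with the length trend removed (-0.33), without Vector replicate 1 (-0.55) or without shEZH2 replicate 1 (-0.54). ID4, an inhibitor of basic helix-loop-helix factors, rose by 0.86 (limma adjusted p = 0.0845), and by 0.53, short of the threshold, with array weights. An antisense gene, AL022068.1, overlaps ID4 with a mean equal to 35.2% of that of ID4, and whether counting used strand is not given in the sources used here. The other 2 past the threshold upward, FOXC2 (0.97) and SNAI3 (1.01), had low counts. FOXC2 did not pass without Vector replicate 1 (0.72), shEZH2 replicate 1 (0.91) or shEZH2 replicate 2 (0.94). SNAI3 did not pass with DESeq2 (1.01), with the length trend removed (0.85), with the replicate block, or without Vector replicate 3 (0.77) or any single shEZH2 library.

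Corepressors that SNAI and ZEB factors recruit numbered 12, all tested, of which 1 rose and 1 fell. AJUBA, a LIM protein that binds SNAI factors, measured 295, 316 and 279 in Vector and 483, 501 and 519 in shEZH2 libraries, with a log2 fold change of 0.76 (SE 0.13, limma adjusted p = 0.0259). LIMD1, a related LIM protein, had a log2 fold change of -0.65 (limma adjusted p = 0.161), and did not pass the threshold without Vector replicate 2 (-0.40), shEZH2 replicate 1 (-0.56) or shEZH2 replicate 2 (-0.60), with the length trend removed (-0.38) or with array weights (-0.20). The median of the list was -0.02.

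Several epithelial genes were at low counts in these cells. Of 13 transcription factors and splicing regulators that maintain epithelial identity, 12 have a row and 7 of these were under the minimum mean, among them GRHL2, OVOL1 and OVOL2. Of the 5 tested, EHF rose past the threshold, at low counts. The median log2 fold change of the 5 was 0.44, and 0.31 without Vector replicate 2. The groups did not overlap for 4 of the 5, beside 34.8% of all genes. ESRP1 (0.44), KLF4 (0.40) and FOXA1 (0.45) were higher in every shEZH2 library, at sizes under the threshold. GRHL1 (-0.25) was lower on average, with overlapping groups. Of 30 junction and keratin genes, 14 were tested, CLDN4 rose and none fell. CLDN4, a claudin of tight junctions, measured 336, 198 and 297 in Vector and 642, 499 and 507 in shEZH2 libraries, with a log2 fold change of 1.01 (SE 0.22, limma adjusted p = 0.0523). Without Vector replicate 2, 3 genes of that list passed upward.

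Genes of mesenchymal filaments and matrix other than VIM and FN1 moved in both directions. Of 26 named, 19 were tested, 5 rose, 2 fell and 6 had an adjusted p under 0.05, beside 14.6% and 4.12% of all genes past the threshold and after adjustment. The median log2 fold change was 0.38, and 0.12 without Vector replicate 2. TGFBI, a matrix protein induced by TGF-beta, rose from 551 to 725 normalized counts in Vector to 1373 to 1632 in shEZH2 libraries, a log2 fold change of 1.21 (SE 0.16, limma adjusted p = 0.0118). FBLN1 (fibulin-1), which binds fibronectin, rose by 1.19 (SE 0.20, limma adjusted p = 0.0249). TNC, tenascin-C, a matrix glycoprotein, measured 11539, 21174 and 11686 in Vector and 4892, 5216 and 6058 in shEZH2 libraries. Its log2 fold change was -1.40 (SE 0.26, limma adjusted p = 0.0303), and -1.11 without Vector replicate 2, whose value was the highest. The other genes that rose were FAP, TPM1 and LOXL2, with LOXL2 overlapping the more abundant ENTPD4 on the same strand. FBN1, at low counts, passed the threshold downward (-1.05) with all 6 libraries. It did not pass without Vector replicate 2 (-0.80), in 4 other fits that left out 1 library, with the length trend removed (-0.73), with array weights (-0.25), with the replicate block or with no minimum mean.

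Of 14 genes listed as TGF-beta inputs to EMT, 11 were tested, 1 rose and 1 fell. The list also held SMAD7, SKI and SKIL and the antisense RNAs ZEB2-AS1 and ZEB1-AS1, and neither antisense RNA was tested. TGFBR2, the type II receptor, measured 1552, 1684 and 1488 in Vector and 2260, 2670 and 2829 in shEZH2 libraries, a log2 fold change of 0.71 (SE 0.14, limma adjusted p = 0.0380). TGFBR1, the type I receptor, had a log2 fold change of -0.63 (limma adjusted p = 0.157), and did not pass the threshold without Vector replicate 2 (-0.39), shEZH2 replicate 1 (-0.53) or shEZH2 replicate 3 (-0.66), with the length trend removed (-0.52) or with array weights (-0.35).

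Lists of other cell types were measured beside these. Of 8 fibroblast markers, 3 were tested, FAP and LUM rose and COL1A2 fell, and the summed level of the list was 440 to 453 normalized counts in Vector and 727 to 912 in shEZH2 libraries. FAP also counts among the mesenchymal genes above. COL1A2 fell by 0.83 on the log2 scale (limma adjusted p = 0.121) and did not pass the threshold without Vector replicate 1 (-0.70) or shEZH2 replicate 2 (-0.67), with the length trend removed (-0.58) or with array weights (-0.58). LUM rose by 0.74 (limma adjusted p = 0.0772) and FAP by 1.19 (limma adjusted p = 0.0173). The other 5 markers of the list, COL1A1, COL3A1, DCN, PDGFRA and PDGFRB, were under the minimum mean and were not tested. Keratinocyte and epithelial markers, 2 tested of 8, had none past the threshold, with a summed level of 887 to 1329 in Vector and 1234 to 1348 in shEZH2 libraries. Immune and endothelial markers, 1 tested of 6, had none past it either, with summed levels of 30.5 to 89.6 and 31.5 to 43.9.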

How the data were processed

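HMV-II poly(A) RNA was sequenced in 3 Vector and 3 shEZH2 libraries. Per the labels, featureCounts v1.5.0-p3 gave the authors their reads on each gene, and the submitters' processing notes name DESeq2 1.20.0 and hg19. The deposited signal values are counts divided by 1 size factor per library, and 100% of them came out as whole reads (tolerance 0.01 of a read). The aligner and strandedness are not given in the sources used here. The table's coordinates are GRCh38, since 47.0% of 15283 coding genes share a start or end with it and 0.680% with GRCh37. The authors' log2 fold changes and p-values were not used, and 0 columns of single libraries were left out.

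The groups were compared with limma 3.58.1 (mean-variance trend) on log2(normalized count + 1) in R 4.3.3, over 15251 genes with a mean of at least 10, with Benjamini-Hochberg adjustment. Fold changes are on that scale. A call needed more than a 1.5-fold change and a p below 0.05 before adjustment, the thresholds of the study's methods. Single ratios had an exact permutation test over 20 arrangements. Alternatives included DESeq2 1.42.0 and edgeR 4.0.16 on recovered reads, other pseudocounts and filters, removal of a gene length trend, array weights, a replicate block and each library left out. The models were tested on simulated data.

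The members and lists were chosen with earlier results of these data known. All members were named, and from each list up to 2 rises and 2 falls with a mean of at least 50.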

Additional observations from a re-analysis of the deposited data

How the results depend on the processing

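FN1 was past the threshold in every alternative except a log2 fold change threshold of 1, under which the count of the 8 genes past it fell from 1 to 0 and that of all genes from 2229 to 798. With 1 library left out at a time, 1 to 2 of the 8 passed, TWIST2 joining at 0.70 without shEZH2 replicate 3, and 0 to 1 had an adjusted p under 0.05, FN1 without Vector replicate 2. With all 6 libraries, no gene of the 8 had a limma adjusted p under 0.05, beside 1 gene passing the unadjusted threshold, and 1 had with DESeq2 or with the length trend removed (FN1) and 3 with array weights (FN1, CDH1 and CDH2). The count of all genes with an adjusted p under 0.05 was 629, and 1644 with DESeq2, 1233 with the length trend removed, 7128 with array weights and 4 to 2875 with 1 library left out, the lowest without shEZH2 replicate 3 and the highest without Vector replicate 2. It was 179 and 141 without Vector replicates 1 and 3, and 19 and 31 without shEZH2 replicates 1 and 2. Directions turned for 3 genes that had passed no threshold. ZEB2 was 0.20 with the length trend removed and 0.039 with array weights. SNAI2 ran from -0.27 without Vector replicate 2 to 0.10 without Vector replicate 1 and was also positive without Vector replicate 3 or shEZH2 replicate 1. TWIST1 was -0.039 with the length trend removed and -0.078 with array weights, and ran from -0.025 without shEZH2 replicate 1 to 0.24 without Vector replicate 1. The cause of these changes was not tested.

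The study's methods name no pairing of replicates, so the numbers were not taken to pair the samples. Deviations from the group mean, over genes, had correlations of 0.28, 0.22 and -0.11 between libraries of the same number. Between Vector and shEZH2 libraries of other numbers, the correlations ran from -0.31 to 0.25. With the replicate block, 2434 genes passed the threshold and 424 had an adjusted p under 0.05. FN1 alone of the 8 passed the threshold, and 0 of the 8 had an adjusted p under 0.05. The difference of 0.46 in the log2 ratio of CDH2 to CDH1 cannot change with a block, since each number has a library in both groups. The ratio of ZEB1 to ZEB2, planned with its alternatives, was not run. EZH2 stayed past the threshold in all its alternatives, between -1.19 and -0.96. The median of all genes moved between -0.02 and 0.07 over the alternatives.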

Other observations

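Melanocyte genes, beside which EMT factors are often read in melanoma, were described within a list of 13 markers of melanoma state, all tested. The list also held AXL, NGFR, WNT5A and EGFR, markers of dedifferentiated melanoma. TYRP1 and MLANA rose and TYR fell. The median log2 fold change of 0.23 pools markers of different states and is not that of the melanocyte genes alone. TYRP1, a melanosomal enzyme, measured 283, 257 and 285 normalized counts in Vector and 843, 942 and 876 in shEZH2 libraries, a log2 fold change of 1.68 (SE 0.13, limma adjusted p = 0.00317). TYR, tyrosinase, the rate-limiting enzyme of melanin synthesis, measured 7391, 4388 and 7250 in Vector and 3097, 3194 and 3153 in shEZH2 libraries, a log2 fold change of -0.97 (SE 0.22, limma adjusted p = 0.0532). MLANA, a melanosomal antigen, had 197 in Vector replicate 2 against 550.0 and 541 in the other Vector libraries, and its log2 fold change of 0.88 (limma adjusted p = 0.214) was 0.39 without that library. It did not pass the threshold without it or without any single shEZH2 library (0.86 to 0.90), with edgeR (0.72 to 0.73), with array weights (0.42) or with either stricter filter on low counts. The antisense gene LURAP1L-AS1 overlaps TYRP1, with a mean equal to 16.4% of that of TYRP1, and KIAA2026 overlaps MLANA on the opposite strand, with a mean equal to 42.9% of that of MLANA.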
